A study of Homo sapiens with 8 samples.

Results

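The comparison set the untreated IRF1-guide clones against the untreated control clones of CFPAC1, an established human cell line from pancreatic ductal adenocarcinoma, a cancer of the cells that line the ducts of the pancreas. Every peak of the deposited H3K27ac table entered it, 31961 of 31961, in 4 of the 8 libraries of the series. Control clones 1 and 4 were grown from single cells that had received the lentiCRISPRv2 plasmid, for which the labels name no guide. In IRF1-guide clones 11 and 13 the same plasmid expressed wild-type Cas9 together with a guide against the IRF1 gene. None of these 4 libraries had received hIFNb, read here as human interferon beta, and the other 4 libraries came from the same clones after 2 hours of it. Each clone is a single-cell isolate, so differences between the sides may belong to the guide or to the particular clones, which cannot be told apart with 2 clones a side. The labels name the target of the guide and do not say whether IRF1 protein was lost.

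IRF1 is a transcription factor that binds interferon-responsive DNA elements. Besides its induction by interferons, it maintains the resting expression of some antiviral and antigen presentation genes in epithelial cells. H3K27ac is an acetylation of histone H3 carried by active promoters and enhancers. The comparison therefore asks where this mark differed between the clones in the absence of added interferon.

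The 4 promoter sequences below are shown because their peaks were among those with lower scores in the IRF1-guide clones and because each holds the spacing of GAAA repeats that interferon regulatory factors recognise. They run from 150 bases before the RefSeq start to the first 10 bases from it, 5′ to 3′ on the strand of the gene (RefSeq, GRCh38.p14), with every match to GAAANNGAAA on either strand in capitals. The genes are RTP4 (chr3:187368235-187368394, plus strand), SLFN12L (chr17:35537669-35537828, minus strand), GBP4 (chr1:89198933-89199092, minus strand) and TAP1 (chr6:32853695-32853854, minus strand).
RTP4: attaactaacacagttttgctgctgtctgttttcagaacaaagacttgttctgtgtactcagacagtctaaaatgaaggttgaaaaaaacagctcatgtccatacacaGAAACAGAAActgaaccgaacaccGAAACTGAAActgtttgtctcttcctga
SLFN12L: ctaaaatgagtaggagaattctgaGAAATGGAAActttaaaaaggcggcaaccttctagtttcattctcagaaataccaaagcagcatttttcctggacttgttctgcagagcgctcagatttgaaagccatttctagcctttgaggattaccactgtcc
GBP4: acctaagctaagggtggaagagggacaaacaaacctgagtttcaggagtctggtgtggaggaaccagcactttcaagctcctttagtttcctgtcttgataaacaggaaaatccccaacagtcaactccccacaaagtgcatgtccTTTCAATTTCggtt
TAP1: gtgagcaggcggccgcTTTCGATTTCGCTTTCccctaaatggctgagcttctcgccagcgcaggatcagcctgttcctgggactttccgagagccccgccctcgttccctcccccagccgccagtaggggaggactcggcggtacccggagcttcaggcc
In RTP4 the matches began 42 and 18 bases before the start, in SLFN12L 126 bases and in GBP4 4 bases before it. TAP1 held 2 overlapping matches, which began 134 and 128 bases before its start. These 4 were chosen after their values and matches were seen. A match is a description of the letters and was not tested as a binding site.

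Values are scores, the read counts per peak that the authors normalised and rounded. Differences are IRF1-guide minus control on the scale of log2(score + 1), with the standard error (SE) of the limma fit. No peak passed an adjusted p under 0.05 without hIFNb, 0 of 31961, a percent called of 0. The smallest adjusted p was 0.0532 (limma, Benjamini-Hochberg over all peaks), shared by 28 peaks, 22 of them lower and 6 higher in the IRF1-guide clones. At an adjusted p under 0.1 there were 113 peaks (0.354% of all), 87 lower (0.272%) and 26 higher (0.0813%). At an unadjusted p under 0.05 there were 3851 peaks (12%), 2317 lower (7.25%) and 1534 higher (4.8%). Every gene named here thus missed the threshold, and "lower" and "higher" describe the measured scores. The number of calls depended on how the clones entered the fit. With the clone as a random effect, a replicate block over its 2 libraries, limma called 68 peaks, 49 lower and 19 higher. On clone means, which average untreated and hIFNb libraries and so are not limited to untreated cells, it called 165, of which 146 were lower. Without IRF1-guide clone 11 it called 1 peak, the IDO1 promoter described below. The excess of lower peaks at an unadjusted p under 0.05 also turned on single clones: without control clone 4 there were 1438 lower and 1578 higher peaks, and without IRF1-guide clone 13 there were 1645 and 575.

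The median absolute difference was 0.29 on the log2 scale between the means of the 2 sides. Between single clones it was 0.30 for control clones 1 and 4 and 0.33 for IRF1-guide clones 11 and 13, which are not means and so vary more. The quartiles of the genotype differences were -0.32 and 0.26, and 2713 peaks (8.49%) differed by more than 1 in size. At 12981 peaks (40.6%) the 2 libraries of each side did not overlap, 7200 lower (22.5%) and 5781 higher (18.1%).

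**Figure D1:**
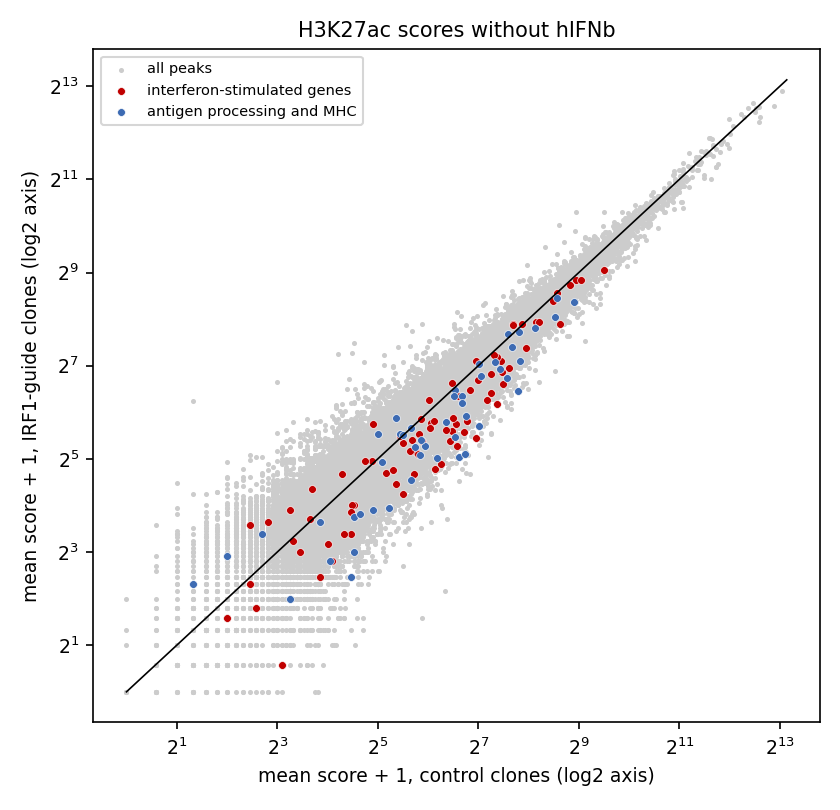
Mean score + 1 of the 2 control clones (x axis, log2) against that of the 2 IRF1-guide clones (y axis, log2) at each of the 31961 peaks without hIFNb. Grey points are all peaks, red points those linked to interferon-stimulated genes and blue points those linked to antigen processing and MHC genes, and most coloured points lie under the line of equal scores.

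The sequenced depth behind the 4 columns was not equal as far as the table shows it. Score totals were 3408527 and 3414984 in control clones 1 and 4, and 3317881 and 3316085 in IRF1-guide clones 11 and 13. Both control columns used every whole number from 1 to 100, while clone 11 left 12 of them unused and clone 13 left 30 unused, as upscaled counts would. Taking the share of numbers used as the inverse of the scaling implies about 2919735 and 2321259 reads in peaks for clones 11 and 13, fewer than in the control libraries. Peaks at a score of 0 numbered 86 and 68 in the control clones and 148 and 172 in the IRF1-guide clones. The part of this gap in the differences was not tested.

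Interferon-stimulated genes, whose products block viral replication, formed one of the groups with lower scores. Peaks were linked to the protein-coding gene with the nearest transcription start within 50 kb. The list of 60 such genes had 80 linked peaks from 51 genes, with a median difference of -0.46 against -0.03 over all peaks. At an unadjusted p under 0.05, 28 of the 80 (35%) were lower and 1 was higher, where all peaks had 7.25% and 4.8%. In 48 of the 80 both IRF1-guide clones lay under both control clones, and in 4 both lay above, where 22.5% and 18.1% of all peaks did so. Leaving out 1 library at a time gave 21 to 26 lower peaks.

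RTP4, an interferon-induced gene that restrains viral replication, had scores of 198 and 147 in the control clones and 51 and 61 in the IRF1-guide clones at its promoter (chr3:187362879-187372441). Means were 172.5 ± 36.1 and 56 ± 7.07 (SD, n = 2 each), 3.08 times higher in the control clones, and the clones of the 2 sides were far apart. The log2 difference was -1.60 ± 0.21 (SE, limma adjusted p = 0.0532). UBE2L6 encodes the enzyme that carries ISG15, a ubiquitin-like protein, to its targets. Its promoter (chr11:57562514-57571724) had scores of 132 and 113 in the control clones and 41 and 44 in the IRF1-guide clones. The difference of -1.50 ± 0.20 (limma adjusted p = 0.0532) was about as large as at RTP4. UBA7, the gene for the enzyme that activates ISG15 before UBE2L6 takes it over, was chosen after its values were seen. Its low promoter peak had scores of 30 and 20 in the control clones and 0 and 4 in the IRF1-guide clones, a difference of -3.51 ± 0.76 (limma adjusted p = 0.128). The promoter of ISG15 itself has no score of its own, because it lies inside a 28.5 kb peak that also holds the start sites of AGRN and HES4. That whole peak had scores of 512 and 467 against 532 and 378, and the clones of the 2 sides overlapped (-0.12 ± 0.20, limma adjusted p = 0.849).

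Other antiviral promoters showed the same separation with smaller differences. HERC6, a ubiquitin ligase gene of the interferon response, had scores of 89 and 61 in the control clones and 30 and 27 in the IRF1-guide clones (-1.34 ± 0.25, limma adjusted p = 0.09). MX1 and MX2, genes for GTPases that trap viral components, had promoter scores of 202 and 127 against 79 and 63 at MX1 and of 101 and 87 against 49 and 27 at MX2. For these 2 peaks the differences were -1.17 and -1.34. OAS3, which encodes a sensor of double-stranded RNA, had scores of 153 and 150 in the control clones and 70 and 98 in the IRF1-guide clones. PARP14, an ADP-ribosyltransferase gene, had scores of 178 and 182 against 96 and 97, with little spread within either side (-0.89 ± 0.18, limma adjusted p = 0.103). IFIT3, a gene for a protein that binds viral RNA, had scores of 408 and 385 against 271 and 203. At these 6 promoters no IRF1-guide library reached the lower control library, as at 22.5% of all peaks. The MX, OAS3, PARP14 and IFIT3 peaks were chosen after their values were seen.

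SLFN12L belongs to the Schlafen genes, several of which respond to interferon, and stood outside the lists. Its promoter (chr17:35536552-35543359) had scores of 102 and 92 in the control clones and 26 and 18 in the IRF1-guide clones, 4.41 times higher in the control clones (-2.11 ± 0.26, limma adjusted p = 0.0532). ETV7, an interferon-induced repressor gene, had scores of 41 and 33 against 8 and 11 (-1.86 ± 0.28, limma adjusted p = 0.0532). TLR3, which encodes an endosomal receptor for double-stranded RNA, had scores of 55 and 49 against 8 and 18. Its difference was -2.02 ± 0.37 (limma adjusted p = 0.09). IDO1, the gene for an enzyme that breaks down tryptophan, had scores of 36 and 61 against 16 and 0. The clone 13 library alone set much of its difference of -3.54 ± 0.96 (limma adjusted p = 0.2), which was -1.49 without it and -5.58 without the clone 11 library (limma adjusted p = 0.0126). ETV7, TLR3 and IDO1 were chosen after their values were seen. Among these 4 promoters the 2 sides did not overlap, as at 22.5% of all peaks in this direction.

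Genes of antigen processing and the major histocompatibility complex (MHC), whose products cut proteins into peptides and display them to T cells, were the other large group. The median difference of the 48 peaks linked to 22 of these genes was -0.49, against -0.03 over all peaks. At an unadjusted p under 0.05, 22 of the 48 (45.8%) were lower and 0 were higher, against 7.25% and 4.8% of all peaks. The count rested on particular clones: it was 10 without control clone 4, 11 without IRF1-guide clone 13, 17 without control clone 1 and 20 without IRF1-guide clone 11. In 30 of the 48 peaks both IRF1-guide clones lay under both control clones, and in 4 both lay above (22.5% and 18.1% of all peaks). Reads of the HLA genes can align to more than 1 of these similar genes, so their scores are uncertain.

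Class I genes encode the molecules that present peptides from inside the cell. The HLA-C promoter (chr6:31270770-31273592) had scores of 95 and 99 in the control clones and 33 and 31 in the IRF1-guide clones, a difference of -1.57 ± 0.21 (limma adjusted p = 0.0532). HLA-B (chr6:31355826-31359432) had scores of 113 and 99 against 39 and 28 (-1.65 ± 0.28, limma adjusted p = 0.0761). HLA-E had scores of 57 and 63 against 41 and 34. All 3 promoters separated the clones, as 22.5% of all peaks did in this direction, with wider gaps at HLA-B and HLA-C. Over the 23 peaks of the class I group 8 were lower at an unadjusted p under 0.05, where 7.25% of all peaks were. Their median was -0.26, against -0.03 over all peaks. Of these 23, 15 had a difference below 0, and differences ran from -1.65 to 0.95.

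Class II molecules present peptides from outside the cell, and CIITA is the coactivator that switches their genes on. All 12 peaks linked to the listed class II genes, CIITA and CD74 had a difference below 0, from -2.63 to -0.51. Their median was -1.25, against -0.03 over all peaks. At an unadjusted p under 0.05, 10 of the 12 were lower, against 7.25% of all peaks. A further peak, linked to the class II gene HLA-DOA, which was not in the list (chr6:33015980-33022206), had scores of 48 and 47 in the control clones and 7 and 14 in the IRF1-guide clones (-2.15 ± 0.31, limma adjusted p = 0.0532). CD74, the gene of the class II invariant chain, had promoter scores of 215 and 225 against 106 and 67 (-1.37 ± 0.34, limma adjusted p = 0.162). At CIITA the scores were 338 and 393 against 318 and 205, which shows clone 11 close to the control clones and clone 13 well under them. The HLA-DMB and HLA-DRB1 peaks also had their lowest score in clone 13. The grouping by class and the genes HLA-E, CD74, CIITA, HLA-DMB and HLA-DRB1 were chosen after values were seen.

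Peptides for class I are made by the immunoproteasome and moved by the TAP transporter. PSMB9, an immunoproteasome subunit gene, and TAP1, a transporter subunit gene, share a promoter. The peak there had scores of 134 and 123 in the control clones and 42 and 61 in the IRF1-guide clones (-1.33 ± 0.24, limma adjusted p = 0.0883). The subunit genes PSMB8 and PSMB10 had scores of 187 and 193 against 98 and 112, and of 115 and 99 against 64 and 55. These 3 promoters, chosen after their values were seen, separated the clones without exception, as 22.5% of all peaks did in this direction. At an unadjusted p under 0.05, 4 of the 13 peaks of this group were lower, against 7.25% of all peaks. Of the 13, 11 had a difference below 0. The median of the 13 was -0.30, against -0.03 over all peaks.

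Guanylate-binding proteins (GBP) are interferon-induced GTPases that attack intracellular pathogens, and the APOL family includes proteins that lyse parasites. Their list had 15 peaks from 8 genes, with a median of -0.45. At an unadjusted p under 0.05, 6 of the 15 (40%) were lower and 1 was higher, against 7.25% and 4.8% of all peaks. GBP4 had promoter scores of 57 and 42 in the control clones and 11 and 14 in the IRF1-guide clones (chr1:89197716-89203274, -1.90 ± 0.29, limma adjusted p = 0.0617). A peak inside APOL3 had scores of 88 and 77 against 27 and 45 (-1.22 ± 0.27, limma adjusted p = 0.132). Both genes had every IRF1-guide library under every control library, as 22.5% of all peaks did. The peak on the higher side, linked to GBP1, had scores of 26 and 1 in the control clones, so that its difference turns on control clone 4.

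**Figure D2:**
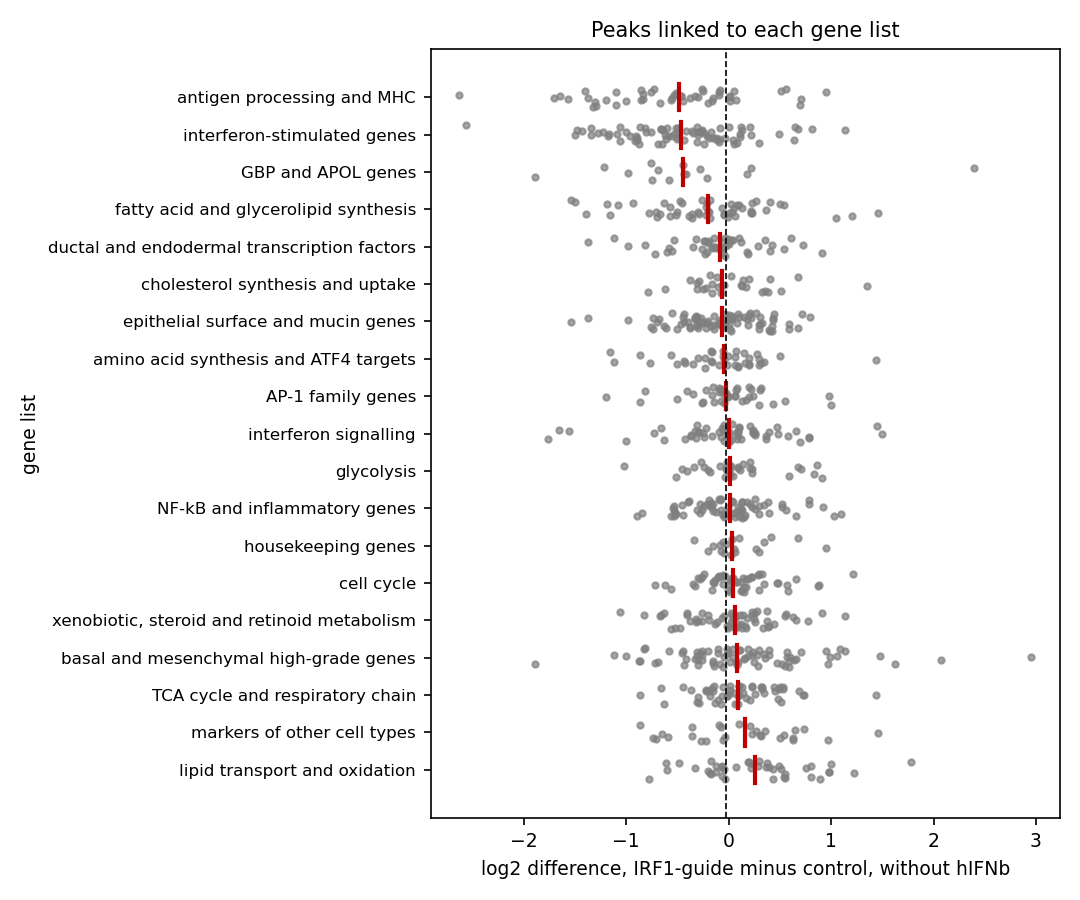
IRF1-guide minus control difference in untreated clones (x axis, log2) at each peak of 19 gene lists (rows, 1 grey point per peak, red bar for the median, dashed line for the median of all peaks). The medians of the MHC, interferon-stimulated and GBP and APOL lists lie at -0.49, -0.46 and -0.45, and the other 16 lists lie between -0.20 and 0.26.

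The genes of interferon signalling itself, with its receptors, kinases, STAT proteins and regulatory factors, had a median near that of all peaks. Over their 58 peaks it was 0.00, with 6 lower (10.3%) and 2 higher at an unadjusted p under 0.05. All peaks had 7.25% lower and 4.8% higher. The IRF1 locus held a 64.2 kb peak with its promoter (chr5:132442197-132506408). Its scores were 2014 and 1306 in control clones 1 and 4 and 1332 and 1187 in IRF1-guide clones 11 and 13. Clone 11 lay above control clone 4, so the sides overlapped (-0.37 ± 0.21, limma adjusted p = 0.53). H3K27ac at this locus does not measure IRF1 protein. IRF9, a subunit of the factor that interferon signalling activates, had promoter scores of 210 and 139 against 102 and 104 (-0.72 ± 0.22, limma adjusted p = 0.25). A peak linked to SOCS2, a gene for a feedback inhibitor of cytokine receptors, had scores of 25 and 19 against 8 and 4.

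The lower peaks outside the interferon lists included strong ones. A peak 17.9 kb from the EID2 start, which encodes an inhibitor of acetyltransferases, had the smallest p of all peaks (chr19:39552026-39564098). Its scores were 125 and 101 in the control clones and 26 and 23 in the IRF1-guide clones (-2.15 ± 0.24, limma adjusted p = 0.0532). KALRN encodes a guanine nucleotide exchange factor and had promoter scores of 200 and 202 against 81 and 63. The promoter peaks of CDKL1, a kinase gene, and MAX, the partner of MYC, had scores of 233 and 230 against 97 and 88, and of 107 and 104 against 41 and 33. In these 4 peaks the clones of a side lay close together and the sides far apart, which was part of how they were chosen. Differences ran from -2.15 to -1.32.

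Further peaks of this kind lay inside or near SLC44A1, UNC80 and GAGE10. SLC44A1 encodes a choline transporter, and a peak in its body had scores of 48 and 54 against 13 and 14 (-1.84 ± 0.25). The peak in UNC80, a gene of a sodium leak channel complex, had scores of 23 and 19 against 2 and 1. GAGE10 belongs to a family of near-identical cancer-testis genes, so reads there may be shared, and its peak had scores of 66 and 77 against 22 and 20. All 3 had a limma adjusted p of 0.0532. CLIC5, an intracellular chloride channel gene, had promoter scores of 265 and 242 against 83 and 97. A peak with its centre 22.8 kb from the start of IL7R, a cytokine receptor gene, had 101 and 189 against 38 and 26. The MCTP2 promoter had scores of 103 and 111 against 27 and 23. CLIC5, IL7R and MCTP2, chosen after their values were seen, had limma adjusted p of 0.0807, 0.0751 and 0.0645.

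**Figure D3:**
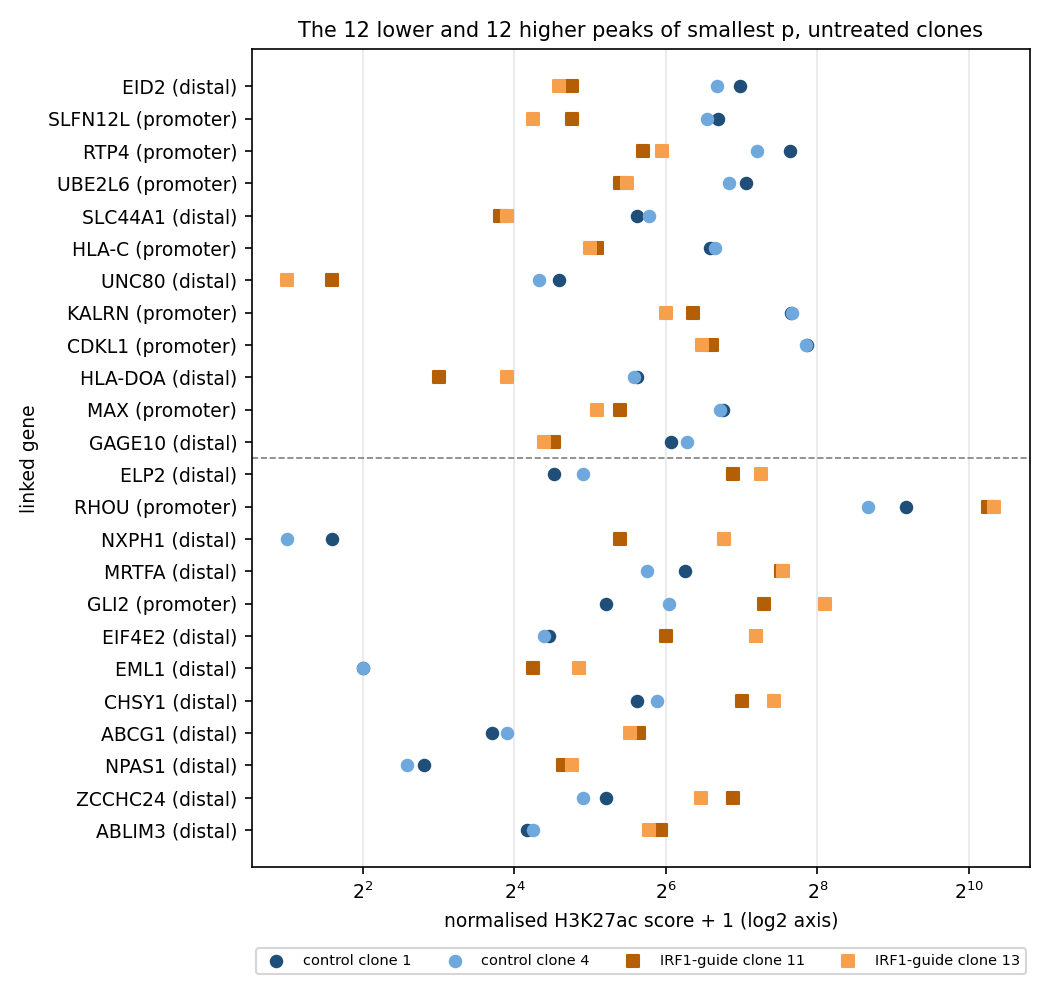
Scores + 1 in the 4 untreated libraries (x axis, log2) at the 12 lower and 12 higher linked peaks of smallest p (rows, named by linked gene). Circles are control clones and squares IRF1-guide clones, and in each row the circles and squares do not overlap, which was part of how the peaks were chosen.

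Higher peaks were fewer. A peak inside ELP2, a gene of the Elongator complex that modifies transfer RNA, had scores of 22 and 29 in the control clones and 117 and 152 in the IRF1-guide clones (chr18:36150112-36157561, 2.35 ± 0.28, limma adjusted p = 0.0532). MRTFA encodes an actin-regulated coactivator, and a peak in its body had scores of 75 and 53 against 182 and 186 (1.53 ± 0.23, limma adjusted p = 0.0532). The widest of these peaks, 40.3 kb with the start of RHOU, a gene for a small GTPase, had scores of 578 and 405 against 1222 and 1294. It covers a cluster of repeated 5S ribosomal RNA genes, so reads in it may be shared between copies. At a peak in NXPH1 the control scores were 2 and 1 and the IRF1-guide scores 41 and 108, which is near absence on one side and unequal scores on the other.

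GLI2 encodes a transcription factor of Hedgehog signalling and was in the list of basal and mesenchymal genes of high-grade tumours. Its promoter (chr2:120729188-120742324) had scores of 36 and 65 in the control clones and 156 and 274 in the IRF1-guide clones (2.07 ± 0.35, limma adjusted p = 0.0759). A further 3 peaks linked to GLI2 were higher at an unadjusted p under 0.05. The GLI2 peaks lie in a 5 Mb window of chromosome 2 that had a median difference of 0.34 over its 34 peaks. In the same list a peak 48.4 kb from the SNAI1 start had scores of 59 and 66 against 109 and 139. The product of SNAI1 represses epithelial genes, and the link states distance only. The promoter of VIM, the mesenchymal filament gene, had 646 and 777 against 900 and 1151. Members on the lower side included FAM83A, with 404 and 337 against 249 and 175, and the largest LAMA3 promoter peak, with 1201 and 1192 against 920 and 853. The list thus held both directions, with a median of 0.08. At an unadjusted p under 0.05, 10 (12.8%) were higher and 8 (10.3%) lower of 78 peaks, against 4.8% and 7.25% of all peaks. Those counts became 6 higher without IRF1-guide clone 13, and 3 lower without that clone or without control clone 4. VIM, FAM83A and LAMA3 were chosen after their values were seen.

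Lipid transport and oxidation was the list with the highest median, 0.26 over 42 peaks, with 5 higher (11.9%) and 0 lower at an unadjusted p under 0.05, against 4.8% and 7.25% of all peaks. Without IRF1-guide clone 13 the median was 0.17 with 3 higher peaks and 1 lower, and without clone 11 it was 0.45 with 6 and 2. A pair of the 5 were linked to ABCG1, a cholesterol efflux transporter gene. The first had scores of 12 and 14 in the control clones and 49 and 45 in the IRF1-guide clones (1.78 ± 0.31, limma adjusted p = 0.0807), and the second had 74 and 67 against 132 and 148. The others were linked to APOA1, PPARG and PPARA, of which APOA1 had 75 and 66 against 115 and 169. Fatty acid and glycerolipid synthesis had a median of -0.20 over 55 peaks, with 4 lower (7.27%) and 1 higher. None was lower without control clone 1, and the median was -0.085 without IRF1-guide clone 13. Its higher peak lay inside ACLY, the gene of the enzyme that makes cytosolic acetyl-CoA, with scores of 63 and 75 against 117 and 175. On the lower side a peak in ELOVL7, a fatty acid elongase gene, had 130 and 56 against 33 and 31. It lies in a 5 Mb window of chromosome 5 that had a median difference of -0.40 over its 38 peaks. For cholesterol synthesis and uptake 1 peak was lower and 2 were higher of 29 at an unadjusted p under 0.05.

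The remaining metabolic lists are given beside the 7.25% lower and 4.8% higher of all peaks at an unadjusted p under 0.05. In glycolysis 1 of 34 peaks was lower and 2 were higher, with a median of 0.01. The genes of the TCA cycle and respiratory chain had 1 lower and 2 higher peaks of 55 (median 0.09). Amino acid synthesis had 5 lower (12.8%) and 1 higher of 39, and 1 to 4 lower with 1 library left out. For xenobiotic, steroid and retinoid metabolism 4 (6.56%) were lower and 1 was higher of 61, and 0 to 3 were lower with 1 library left out. The series title names metabolic programmes, and in these 4 lists no peak passed an adjusted p under 0.1. Only 0.354% of all peaks did so, and lists of this size can hold none, so this says little about them. In the lipid transport and oxidation list 1 peak passed, the first ABCG1 peak above.

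Epithelial identity genes had lower peaks in shares near or under the 7.25% of all peaks. Ductal and endodermal transcription factors had 2 lower (4.26%) and 1 higher of 47 peaks, and epithelial surface and mucin genes 6 lower (7.14%) and 0 higher of 84, with medians of -0.08 and -0.06. Without control clone 1 the latter list had 2 lower and 4 higher peaks. CDH1, the gene of the adhesion protein E-cadherin, had promoter scores of 900 and 882 in the control clones and 707 and 608 in the IRF1-guide clones (-0.44 ± 0.17, limma adjusted p = 0.339). NF-kB and inflammatory genes had 4 lower and 3 higher of 70 peaks, AP-1 genes 4 and 1 of 39, and cell cycle genes 2 and 2 of 54. Housekeeping genes had 0 lower and 1 higher of 19 peaks. GAPDH had 265 and 227 against 224 and 237 (-0.09 ± 0.18, limma adjusted p = 0.881), and ACTB had 240 and 181 against 208 and 196 (-0.05 ± 0.28, limma adjusted p = 0.967), with overlapping sides at both.

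The labelled cell type was checked against markers. Of 8 ductal epithelial markers 7 had a promoter peak, and KRT19 had none. Their summed scores were 3759 to 3953 in the control clones and 3196 to 3414 in the IRF1-guide clones. Of 31 markers of fibroblasts, endothelium, blood, endocrine, acinar and liver cells, 5 had a promoter peak, with sums of 1183 to 1500 and 1226 to 1392. These were COL1A1 and ACTA2 of fibroblasts, PECAM1 of endothelium, CD14 of blood cells and CPA1 of acinar cells. The other 26, among them PTPRC, CD3E, VWF, INS, PRSS1 and ALB, had none.

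By position, lower peaks were less frequent among promoters. Promoter peaks, which hold or lie within 2 kb of a start, were lower in 435 of 9952 (4.37%) and higher in 271 (2.72%) at an unadjusted p under 0.05. Distal peaks within 50 kb of a start were lower in 884 of 10957 (8.07%) and higher in 655 (5.98%), and peaks farther away were lower in 998 of 11052 (9.03%) and higher in 608 (5.50%). Of the 87 lower peaks at an adjusted p under 0.1, 19 were promoter, 32 distal and 36 farther from any start. The 26 higher ones were 4, 13 and 9. The share of lower peaks was 5.45% among peaks under 2 kb wide and 9.0% among those of 10 to 20 kb. Differences between these shares were not tested.

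The GAAANNGAAA spacing was counted in all RefSeq promoter windows, which run from 250 bases before to 50 after a start. It was found on either strand in 703 of 22198 windows of protein-coding genes (3.17%) and in 380 of 11011 windows whose start lay inside a peak (3.45%). Windows in peaks that were lower at an unadjusted p under 0.05 held it in 63 of 417 (15.1%), and windows in higher peaks in 5 of 271 (1.85%). At an adjusted p under 0.1 the lower peaks had 5 of 20 (25%), among them the RTP4, SLFN12L, GBP4 and TAP1 promoters printed above. The STAT-type spacing TTCNNNGAA, counted on either strand in the same way, was in 694 of the 11011 (6.30%), in 32 of the 417 (7.67%), in 16 of the 271 (5.90%) and in 3 of the 20 (15%). Several windows can share a gene or a peak (the 417 windows lie in 308 peaks), so these shares are descriptions.

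Some chromosomes were offset as a whole. The median difference was -0.20 over the 915 peaks of chromosome 20, where 12.6% were lower and 3.06% higher at an unadjusted p under 0.05. Relative to each library's own median, chromosome 20 stood at 0.32 and 0.27 in control clones 1 and 4, 0.24 in clone 11 and -0.06 in clone 13, so clone 13 alone was apart. Chromosome 1 had a median difference of 0.14, with control clone 1 at -0.07 and the other 3 clones from 0.14 to 0.23. On chromosome 7, with 0.11, the control clones themselves lay at 0.21 and -0.23 and the IRF1-guide clones at 0.00 and 0.23. Whether clones differ in DNA copy number was not tested. Centring each chromosome on its median gave 4 calls, 2 lower and 2 higher, in place of 0, and the interferon-stimulated and MHC lists kept medians of -0.43 and -0.44 with 26 and 17 lower peaks.

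**Figure D4:**
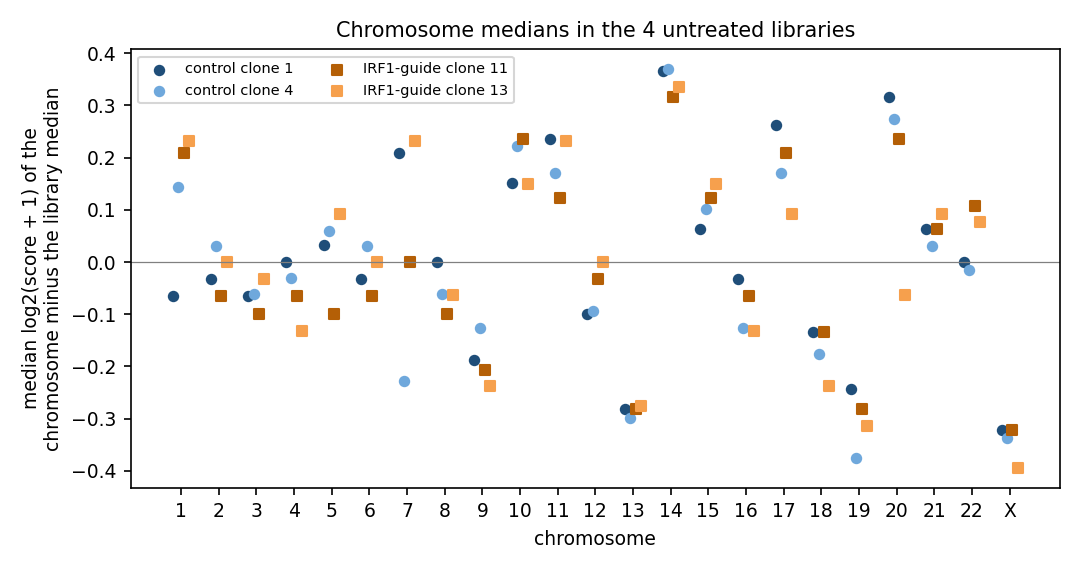
Median log2(score + 1) of each chromosome minus the median of the whole library (y axis) for chromosomes 1 to 22 and X (x axis) in the 4 untreated libraries. Clones of the same side lie apart on several chromosomes, such as control clones 1 and 4 on chromosome 7 and IRF1-guide clones 11 and 13 on chromosome 20.

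The same clones after 2 hours of hIFNb gave a second set of libraries for each peak. These are other libraries of the same clones and not further clones. The fit also gives a peak the same SE with and without hIFNb, so calls in both conditions are not independent. The peaks followed here were chosen by their p without hIFNb. With hIFNb the fit called 776 peaks (2.43%), 700 lower (2.19%) and 76 higher (0.238%) in the IRF1-guide clones. Of the 87 peaks lower without hIFNb at an adjusted p under 0.1, 61 were called lower with it (70.1%), and all 87 had a difference below 0. Their median was -1.90 without and -1.87 with hIFNb. Of the 26 higher peaks 13 were called higher with hIFNb (50%), and all 26 stayed above 0, with medians of 1.98 and 1.41. Of the 2317 lower peaks at an unadjusted p under 0.05, 405 were called lower with hIFNb (17.5%), and of the 1534 higher peaks 58 were called higher (3.78%).

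**Figure D5:**
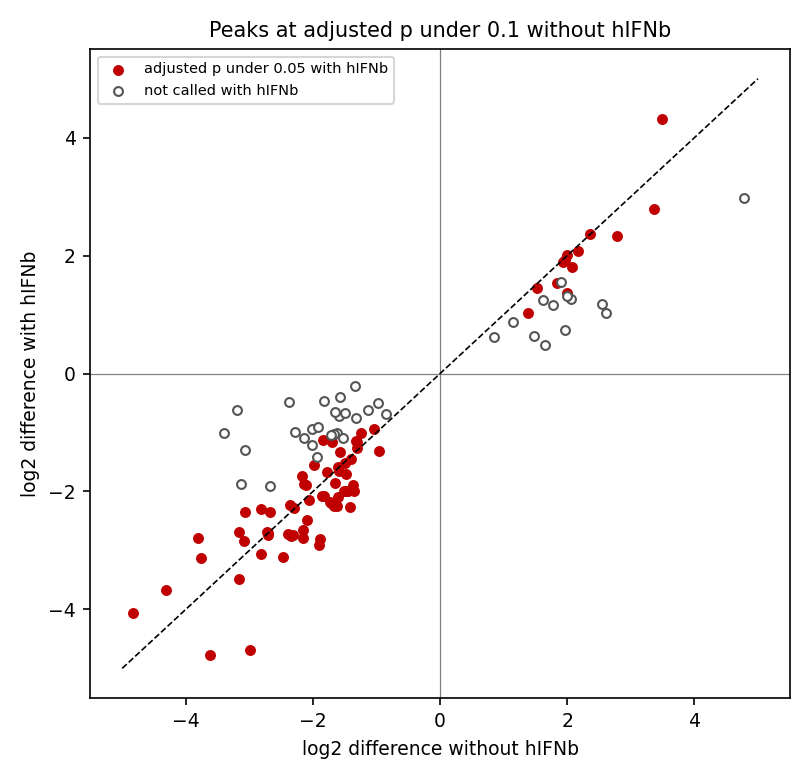
Difference between IRF1-guide and control clones (log2) without hIFNb (x axis) and with it (y axis) at the 113 peaks at an adjusted p under 0.1 without hIFNb. Filled points are called with hIFNb, the dashed line marks equal differences, and no point lies in a quadrant of opposite signs.

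Whether a difference was itself larger without or with hIFNb was tested as an interaction. No peak passed, 0 of 31961 (limma, a percent called of 0), and 1258 (3.94%) were at an unadjusted p under 0.05. With the clone as a block 42 peaks passed, in each of which the difference was lower with hIFNb. The named genes fell on both sides of equality. HLA-C had scores of 245 and 213 in the control clones and 191 and 156 in the IRF1-guide clones with hIFNb, a difference of -0.40 against -1.57 without it (interaction 1.17, limma unadjusted p = 0.00279). RTP4 had 460 and 400 against 266 and 252 with hIFNb, which is -0.73 against -1.60, and UBE2L6 had 381 and 326 against 208 and 234, which is -0.67 against -1.50. HERC6, with 471 and 338 against 361 and 330, had -0.21 against -1.34. These 4 promoters had narrower gaps with hIFNb, without passing the adjusted test. They were named for a small p without hIFNb, and that same difference enters the interaction. Their values therefore cannot show whether the gaps narrowed beyond what that choice gives.

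The other direction was measured at GBP4, with 179 and 172 in the control clones and 21 and 28 in the IRF1-guide clones with hIFNb. Its difference was -2.80 against -1.90 without it (interaction -0.91, limma unadjusted p = 0.0527). The EID2-linked peak had 280 and 217 against 38 and 39, which is -2.65 against -2.15 (interaction -0.49, limma unadjusted p = 0.182). Neither passed the adjusted test, so a wider gap with hIFNb is not shown. SLFN12L, with 157 and 173 against 42 and 45, and KALRN, with 203 and 221 against 65 and 63, kept much the same difference in both conditions. Over the lists the median was -0.46 without and -0.14 with hIFNb for interferon-stimulated genes, -0.49 and -0.39 for MHC genes, and -0.45 and -1.09 for GBP and APOL genes. In the interferon-stimulated list the interaction was above 0 in 7 peaks and below 0 in 2 at an unadjusted p under 0.05, and in the GBP and APOL list it was below 0 in 3 of 15 peaks and above 0 in none. Over all 31961 peaks it was above 0 in 348 and below 0 in 910 at that p.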

How the data were processed

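H3K27ac ChIP-seq gave 1 library per clone and treatment. Alignment used Bowtie2 and GRCh38 (hg38), per the submitters' processing notes. How peaks were called, counted and normalised is not given in the sources used here. In the deposited table each peak has a score for every library, which the authors normalised and rounded to whole numbers. A count test was therefore not used. Reads in peaks are implied only roughly by unused whole numbers, and no counting error is given.

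Scores were analysed as log2(score + 1) in limma 3.58.1 (R 4.3.3) with a group-means model of all 8 libraries, trended empirical Bayes moderation, and p-values adjusted by Benjamini-Hochberg over 31961 peaks. The contrasts were IRF1-guide minus control without hIFNb, the same with hIFNb, and the difference of these. A call needs an adjusted p under 0.05. A filter for peaks above 0 in at least 2 libraries removed 0 peaks. The fit was tested on simulated data. Residual degrees of freedom were 4, to which the moderation added 6.45.

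Groups were taken from sample titles. The sides share no clone number, so the untreated contrast has no fit paired by clone. Clone numbers pair untreated with hIFNb libraries, whose deviations correlated at 0.437 in control and 0.392 in IRF1-guide clones. P-values measure the spread between libraries of 2 clones a side, and the fit takes both libraries of a clone as independent.

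Peaks were linked to the nearest protein-coding start within 50 kb (20909 peaks, 11622 genes), with starts from the authors' distances in the table and from RefSeq. A link states distance only. With no call, the genes named were the 12 lower and 12 higher linked peaks of smallest p whose sides did not overlap and whose higher mean was at least 20, the 2 genes of smallest p of each list, and IRF1, IRF9, ISG15, GAPDH and ACTB. Not every gene so taken is reported here. Ordering by p was chosen after seeing that nothing was called. Members and lists were chosen with earlier results of these data known. Alternatives covered the pseudocount, low scores, scaling, the clone block, the trend, the threshold and each library left out.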

Additional observations from a re-analysis of the deposited data

How the results depend on the processing

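The count of called peaks without hIFNb was 0 in the reported fit. It was also 0 with pseudocounts of 0.5 or 5, no filter, a mean score of at least 20, library medians or quantiles equalised, the 4 untreated libraries alone, or a minimum log2 difference of 1. Leaving out 1 untreated library at a time gave 0 to 1 calls. It became 68 with the clone as a random effect (a replicate block), 6 without the mean-variance trend, and 113 at an adjusted p under 0.1. On clone means 165 peaks were called. These means average the untreated and hIFNb libraries of a clone, so that count is not for untreated cells alone. Chosen after seeing the data, a block by the R1 or R2 ending of the columns gave 403 and centring on chromosome medians gave 4. No analysis paired by clone was possible because the sides share no clone number. The block by column ending sets clone 1 with 11 and clone 4 with 13 by a name that the labels do not explain, and these libraries pair only weakly, with correlations of deviations of 0.091 without and 0.099 with hIFNb.

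With hIFNb the count was 776 in the reported fit, 1207 with a pseudocount of 5, 0 with a minimum log2 difference of 1, 1544 at an adjusted p under 0.1, 1904 with the block by column ending, and 609 to 851 with 1 untreated library left out. A mean score of at least 20 gave 519. The interaction gave 0 calls under every setting run except the clone as a block, with 42. Of the 3851 peaks at an unadjusted p under 0.05 without hIFNb, 60.2% were lower, against 53.3% with library medians equalised, 53.1% after quantile normalisation, 47.7% without control clone 4 and 74.1% without IRF1-guide clone 13.

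The 24 leading peaks in the plot of scores kept their direction under every setting run, except that 1 of them, linked to EML1, was not tested at a mean score of at least 20. They passed in 20 with the clone as a block and in 15 on clone means. The direction turned at genes with differences near 0. With 1 library left out ISG15 ran from -0.37 to 0.12 (0.12 without IRF1-guide clone 13), GAPDH from -0.20 to 0.021 (0.021 without control clone 1) and ACTB from -0.25 to 0.16 (0.16 without control clone 1), and on clone means GAPDH was at 0.070. The cause was not tested. Having 2 clones a side limits the precision, and the depth outside peaks is unknown.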

Other observations

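Offsets between the sides were also seen over shorter stretches. Of 505 windows of 5 Mb with at least 20 peaks, 17 had a median difference under -0.3 and 10 over 0.3, and all 27 had the same sign with hIFNb in the same clones. The lowest median was -0.74 on chromosome 4 from 30 to 35 Mb, where 26 of 28 peaks had a difference below 0. On chromosome 20 from 30 to 35 Mb the median was -0.43, with 65 of 74 peaks below 0. The highest medians were 0.39 on chromosome 7 from 35 to 40 Mb and 0.35 on chromosome 21 from 45 to 50 Mb.

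A few promoters of genes outside the lists, chosen after their values were seen, lay on the higher side. MCAM, an adhesion molecule gene, had scores of 25 and 11 in the control clones and 54 and 75 in the IRF1-guide clones (1.87 ± 0.39, limma adjusted p = 0.116). CAVIN1, a gene of the coat of caveolae, had 43 and 58 against 111 and 134 (1.27 ± 0.28, limma adjusted p = 0.131). HSPG2, the gene of the basement membrane proteoglycan perlecan, had 543 and 576 against 847 and 901 (0.64 ± 0.14, limma adjusted p = 0.123). COL6A2, a collagen VI gene, had 3 and 3 against 17 and 18. The 5 Mb windows that hold HSPG2 and COL6A2 were themselves offset, with medians of 0.32 and 0.35. Those that hold MCAM, CAVIN1 and VAV3 had medians of 0.03, -0.08 and -0.02. VAV3, a gene for a guanine nucleotide exchange factor, had 99 and 102 against 217 and 318, and the same clones with hIFNb had 33 and 38 against 137 and 252. A peak had its centre 5.18 kb from the start of the olfactory receptor gene OR4C6. It had scores of 71 and 88 in the control clones and 7 and 0 in the IRF1-guide clones (-4.82 ± 0.87, limma adjusted p = 0.0848). Reads in the similar genes of that family may be shared.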
